A study of Rattus norvegicus with 12 samples.

Results

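The untreated state of fibroblast-like synoviocytes (FLS) from adjuvant arthritis (AA) rats was described from the 3 RNA-seq libraries of the FCA group, out of 12 libraries in the series. The libraries were chosen by their label, and gene records were ranked by their mean level in them. All 12 libraries came from FLS grown out of synovial tissue of male Sprague Dawley rats injected with complete Freund's adjuvant (CFA), and used at the third passage. The FCA cultures were kept in DMEM without added compound. The other 3 groups, of 3 libraries each, received taurochenodeoxycholic acid (TCDCA), a conjugated bile acid, for 12 h, at 10 µM (AT10), 1 µM (AT1) or 0.1 µM (AT01). No group was grown from rats without arthritis, so the FCA levels describe arthritic cells only. Whether cells of several rats were pooled is not given in the sources used here.

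FLS are the mesenchymal cells of the joint membrane. In the lining layer they secrete lubricin and hyaluronan into the joint fluid, and in the sublining they build collagenous stroma around vessels. In arthritis they are known for releasing matrix metalloproteinases, IL-6 and chemokines that draw leukocytes into the joint.

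Levels were given as FPKM, a fragment number divided by transcript length and by the mapped total of the library, for 22442 records, of which 17012 were loci assembled from the reads, 5430 were Ensembl genes and 1992 had no gene name. The FPKM of an FCA library summed to 296811, 305195 and 298301, within the 284210 to 309696 of the series. Read counts per gene were not used here, so the number of reads behind a value, and its counting error, is unknown. The paper lists unequal totals of valid reads for the FCA libraries, highest for replicate 1, and these totals were not used here. Triplets of values below follow FCA replicates 1, 2 and 3. The study calls the numbered libraries repeats and does not say whether they were separate cultures or animals, so their spread, and each p-value, may be technical in part. An exact 0 can be a failed estimate (Actg1, an actin used by every cell, was listed at 0.16, 0 and 0 FPKM), and such genes are called listed at 0.

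The untreated FLS transcriptome was headed by matrix and cytoskeletal genes. Mgp, the matrix Gla protein that inhibits calcification, was the most abundant record in each library at 7644, 7735 and 8348 FPKM and alone held 2.64% of the FPKM sum. It lay 2.34 ± 0.110-fold (SD, n = 3) above the next gene, S100a4, a calcium-binding protein of motile mesenchymal cells, which was at 3315, 3436 and 3390 FPKM. Vim, the intermediate filament vimentin, followed at 2944, 3084 and 2663 FPKM. Then came Sparc, a collagen-binding matricellular protein, at 2105, 2209 and 2016 FPKM. These 4 genes and Thbs1 kept their order without overlap between their libraries, whereas 26 of the 30 neighbouring pairs among the most abundant records overlapped and have no order beyond their spread.

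Of the 25 most abundant records, 7 were matrix genes (Mgp, Sparc, Thbs1, Fn1, Spp1, Dcn and Col1a1), 3 were secreted factors (Mmp2, Ccl2 and Timp1), 4 were cytoskeletal or actin-binding genes (Vim, Actb, Lgals1 and S100a6) and 3 were named as ribosomal proteins (Rpsa, Rps2 and Rpl23a). The others were S100a4, Ppia, Tpt1, the antioxidant Prdx5, the unannotated AC128792.2 and 3 records described as thymosin beta 10-like (LOC100364435), ferritin light chain 1-like (LOC100360087) and glyceraldehyde-3-phosphate dehydrogenase (LOC108351137). Records of such near-identical gene copies can share reads, and the record named Gapdh itself stood lower, at 415, 435 and 375 FPKM against 1222, 1285 and 1229 for LOC108351137. Over the TCDCA libraries LOC108351137 ran from 0 to 1258 FPKM and AC128792.2 from 0.09 to 1602 FPKM. The cause of these wide ranges was not tested. Neither receptors nor transcription factors entered the top 25. Over all records, matrix members held 8.76% of the FPKM sum, secreted members 5.07%, receptors 0.886% and transcription factors 0.864%. The 112 records whose names begin like those of ribosomal proteins, not all of which need be such proteins, held 8.61%.

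The levels were concentrated in few genes. The 10 most abundant records held 8.67% of the FPKM, the top 100 held 29.2% and the top 1000 held 65.1%. A mean of at least 1 FPKM was reached by 11540 records (51.4%), 10 FPKM by 4354, 100 FPKM by 503 and 1000 FPKM by 21. At the other end, 2748 records were listed at 0 in all 3 libraries.

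**Figure D1:**
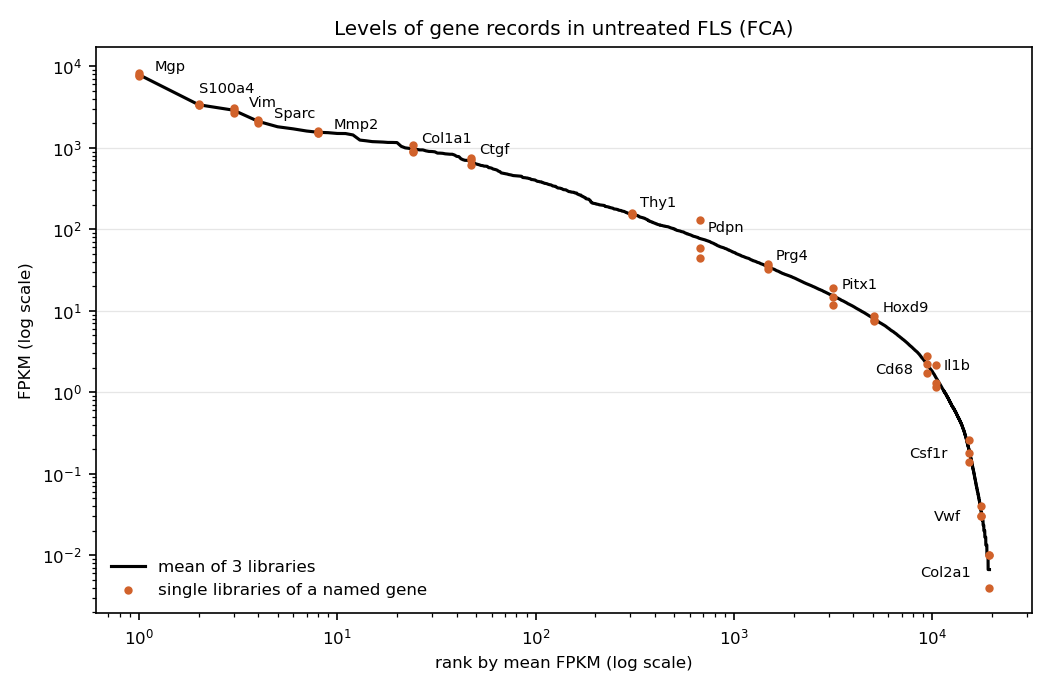
FPKM of gene records (vertical, log scale) against their rank by mean FPKM in FCA (horizontal, log scale). The line is the mean of the 3 libraries and the points are single libraries of named genes, with libraries listed at 0 drawn at the bottom. Mgp stands alone at the top, Pdpn spreads from 44.5 to 128 FPKM, and the cartilage collagen Col2a1 lies at the end of the curve.

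The 3 libraries lay close together for most genes, and closest for abundant ones. The coefficient of variation over the libraries had a median of 13.3% for records of 1 to 10 FPKM, 7.78% for 10 to 100 FPKM, 6.72% for 100 to 1000 FPKM and 6.42% above that. Pearson correlations of log2(FPKM + 1) across the 11540 records were 0.946, 0.949 and 0.947 for the 3 pairs, given as a description since genes are not independent replicates. A minority spread widely, with 944 of the 11540 records (8.18%) differing over 2-fold between their highest and lowest library (of FPKM + 1) and 191 listed at 0 in 1 or 2 libraries. No library stood apart: FCA replicates 1, 2 and 3 were the odd library, alone high or alone low, in 311, 320 and 313 of them. Without any 1 library the number fell to between 550 and 567, since a range over fewer libraries is narrower.

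Some of the widest spreads were found among abundant genes. Of the 503 records over 100 FPKM, 32 ranged over 2-fold. Grem1, a secreted BMP antagonist, was at 742, 55.9 and 820 FPKM, so replicate 2 lay far below the others. Over the 9 TCDCA libraries the same record ran from 44.4 to 950 FPKM, a like range. Tubb5, a beta tubulin, was at 584, 646 and 174 FPKM, with replicate 3 low. Mt-co1, a mitochondrially encoded subunit of cytochrome oxidase, was at 15.3, 1579 and 0 FPKM. The mean of such a record lies far from at least 1 of its libraries, so single values are given for the genes named.

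The 4 fibroblast markers set beforehand, Vim, Col1a1, Thy1 and Pdpn, were all present. Vim and Col1a1, the latter at 917, 1072 and 900 FPKM, were among the 25 most abundant records. Thy1, the CD90 surface protein of sublining fibroblasts, was at 154, 158 and 152 FPKM (SD 3.17 FPKM). Pdpn, podoplanin, a surface glycoprotein raised in inflamed synovium, was at 128, 44.5 and 59.0 FPKM, with replicate 1 alone high. Pdgfrb, the PDGF receptor of mesenchymal cells, was at 169, 149 and 122 FPKM, Cd44, the hyaluronan receptor, at 88.1, 72.3 and 90.7 FPKM, and Cdh11, the cadherin that organises the synovial lining, at 30.7, 26.7 and 30.0 FPKM. All 12 measured mesenchymal surface and stromal genes reached 1 FPKM. Pdgfra and Ncam1 of that list were not analysed here.

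Markers of both synovial layers were present. On the lining side, Cd55, a complement regulator, was at 106, 104.5 and 125 FPKM, Hbegf at 76.8, 85.04 and 44.96 FPKM, and Prg4, which encodes lubricin, at 35.1, 32.3 and 37.5 FPKM. Of 8 lining genes 5 reached 1 FPKM, and Clic5, Tspan15 and Htra4 did not. On the sublining side, Gas6, the ligand of Axl, was at 135, 143 and 131 FPKM, Dkk3 at 28.2, 27.2 and 29.2 FPKM, and the chemokine Cxcl12 at 19.5, 21.8 and 16.9 FPKM. Of 9 sublining genes 5 reached 1 FPKM, while Cd34, Dpp4 and Notch3 lay at or below 0.04 FPKM in every library. Cd248, also of that list, was not analysed here. Thy1 stood 4.44 ± 0.423-fold above the higher of 2 Prg4 records. In bulk cultures, fewer cells of a type and less RNA per cell cannot be told apart, so these levels give no share of lining and sublining cells.

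**Figure D2:**
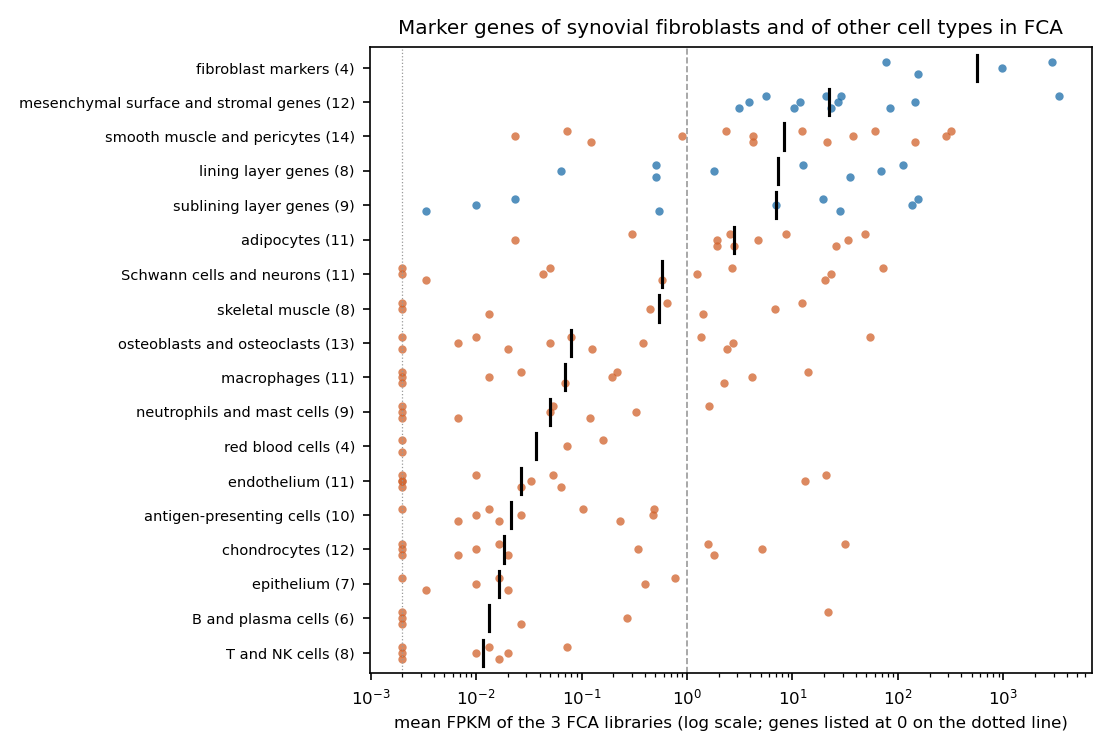
Mean FPKM in FCA (log scale) of each measured marker gene (points) by list, with the number of measured genes in brackets and the list median as a black bar. Synovial fibroblast and mesenchymal lists are in blue, lists of other cell types are in orange, the dashed line is 1 FPKM and the dotted line holds genes listed at 0. Medians run from 559 FPKM for the fibroblast markers to 0.0117 FPKM for T and NK cells.

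The measured markers of blood cells and epithelium were mostly near 0. None of 8 T and NK cell genes, 10 genes of antigen presentation, 7 epithelial genes or 4 red cell genes reached 1 FPKM. Cd3e, Cd3d and Cd2, which define T cells, were listed at 0 in all 3 libraries, as were the B cell genes Cd22 and Mzb1, the class II gene RT1-Da, the epithelial splicing factor Esrp1, the neutrophil genes Elane and Csf3r, the mast cell protease Cma1, and Hba-a2 and Slc4a1 of red cells. Cd74, the class II invariant chain, was at 0.15, 0.04 and 0.12 FPKM. Among neutrophil and mast cell genes only Camp, a cathelicidin, exceeded 1 FPKM, at 1.73, 1.45 and 1.64 FPKM. The single B and plasma cell gene above 1 FPKM was Sdc1, a syndecan that stromal cells also carry, at 12.7, 12.03 and 41.2 FPKM. Not all markers of these lists were measured. Cd3g, Cd8a, Cd5, Cd247, Ms4a1, Cd79b, S100a9 and Hbb were not analysed here, nor were the epithelial genes Cdh1, Krt5, Krt14, Krt18, Krt19 and Cldn7.

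Macrophage genes were low, 3 of 11 measured reaching 1 FPKM. Cd14, the lipopolysaccharide co-receptor, was at 18.8, 18.6 and 4.6 FPKM, and thus lowest in replicate 3. Msr1, a scavenger receptor, was at 5.13, 3.95 and 3.24 FPKM, and Cd68, a lysosomal protein, at 2.79, 2.23 and 1.70 FPKM. Of the genes that define macrophages, Csf1r reached no more than 0.26 FPKM, and Adgre1, Mrc1 and Laptm5 were listed at 0 in all 3 libraries. Ptprc, Itgam, Cd163, Tyrobp, C1qa and C1qb were not analysed here. The summed level of the list was 27.3, 25.2 and 10.2 FPKM.

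Endothelial genes were represented by 2 of 11, Egfl7 at 19.1, 22.1 and 21.1 FPKM and Flt1, the VEGF receptor 1, at 11.2, 16.8 and 11.9 FPKM. Cdh5, Tie1, Emcn and Plvap, which define vessels, were listed at 0, and Vwf stood at 0.03 to 0.04 FPKM. Pecam1, Cldn5 and Robo4 were not analysed here. Of 12 chondrocyte genes 4 reached 1 FPKM, led by Col11a1 at 32.7, 30.3 and 31.7 FPKM, followed by Acan, Sox9 and Comp below 6 FPKM. Col2a1, the main cartilage collagen, was at 0.01, 0 and 0.01 FPKM, and Matn1, Col10a1 and Ucma were listed at 0.

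Of 14 smooth muscle and pericyte genes 10 reached 1 FPKM. Acta2, the smooth muscle actin of myofibroblasts, was at 370, 317 and 263 FPKM, and Tpm2, a tropomyosin, at 256, 348 and 255 FPKM. Myl9, a myosin light chain, was at 60.7, 61.7 and 59.4 FPKM, whereas Myh11, the smooth muscle myosin, was at 4.51, 4.61 and 3.51 FPKM, 75.3 ± 6.61-fold under Acta2. The pericyte channel genes Abcc9 and Kcnj8 lay below 0.2 FPKM. Of 11 adipocyte genes 9 reached 1 FPKM, with Lpl, lipoprotein lipase, at 47.4, 47.0 and 53.0 FPKM and Fabp4, a fatty acid carrier, at 34.3, 29.9 and 37.8 FPKM. Adipoq, the adipokine restricted to fat cells, stood at 1.73, 2.78 and 3.16 FPKM.

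Of the remaining lineages, Ctsk, a collagen-cleaving cathepsin, led the bone list at 51.6, 54.3 and 56.4 FPKM, with the osteoclast genes Ocstamp and Atp6v0d2 listed at 0. Pmp22 led the nerve list at 75.2, 75.2 and 66.9 FPKM, with Rbfox3 listed at 0. Des and Myod1 led the skeletal muscle list at means of 12.4 and 6.89 FPKM, with Myog and Tnni2 listed at 0. Taken as a group, 41 of 134 measured lineage genes reached 1 FPKM, against 25 of 32 synovial and mesenchymal genes.

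Of 126 measured matrix genes 86 reached 1 FPKM and 27 reached 100 FPKM. Col3a1 was at 880, 998 and 876 FPKM, a ratio of Col1a1 to Col3a1 of 1.05 ± 0.0241. The other chain of type I collagen, Col1a2, appears in the files as NEWGENE_621351 in 2 records, at 508, 548 and 493 FPKM and at 485, 515 and 466 FPKM. Summed, they gave a ratio of Col1a1 to Col1a2 of 0.957 ± 0.0455, against 1.86 ± 0.0827 for the higher record alone, so the ratio hangs on whether the records are added. Only the highest of the 3 Col1a1 records entered either ratio. Col5a2, which sets fibril width with Col5a1, followed at 295, 329 and 339.5 FPKM, and Col5a1 at 100, 112 and 112.5 FPKM. All of these chains kept within narrow ranges.

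Non-fibrillar collagens were led by those of basement membranes. Col4a1 was at 275, 289 and 308 FPKM and Col4a2, encoded beside it, at 218, 227 and 234 FPKM, in a ratio of 1.28 ± 0.0280. Col8a1, a short-chain collagen, was at 91.4, 131 and 159 FPKM, and Col6a2, of the beaded microfibrils, at 94.5, 99.9 and 127 FPKM. Of 32 measured genes in this list 14 reached 1 FPKM and 7 were listed at 0 in every library, among them the hypertrophic cartilage collagen Col10a1.

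Among glycoproteins, Thbs1, thrombospondin 1, an activator of latent TGF-beta, was at 1750.19, 1807 and 1885 FPKM, and Fn1, fibronectin, at 1462, 1508 and 1532 FPKM. Spp1, osteopontin, was at 1511, 852 and 1213 FPKM and varied more than its neighbours. Of the 40 measured glycoprotein genes 29 reached 1 FPKM, while Eln, elastin, stayed at or below 0.14 FPKM in each library. The proteoglycans were led by 3 small leucine-rich genes that coat collagen fibrils: Dcn, decorin, at 1144, 1071 and 1279.81 FPKM, Bgn, biglycan, at 869.86, 857 and 855 FPKM, and Lum, lumican, at 595, 603 and 625 FPKM. Sdc4 followed at 193, 183 and 177 FPKM.

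The enzymes that fold and cross-link collagen were expressed throughout, with 16 of 17 at 1 FPKM or more. P4hb, the protein disulfide isomerase subunit of prolyl 4-hydroxylase, was at 611, 640.5 and 653 FPKM. Pcolce, an enhancer of propeptide cleavage, was at 458, 536 and 443 FPKM, and Serpinh1, the collagen chaperone Hsp47, at 246, 261 and 236 FPKM. Lox, the lysyl oxidase, was at 41.3, 45.3 and 153 FPKM, high in replicate 3 alone. Lox and Sdc1 were the only 2 of the 86 matrix genes over 1 FPKM to range over 2-fold, and the median coefficient of variation of the 86 was 6.11%.

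**Figure D3:**
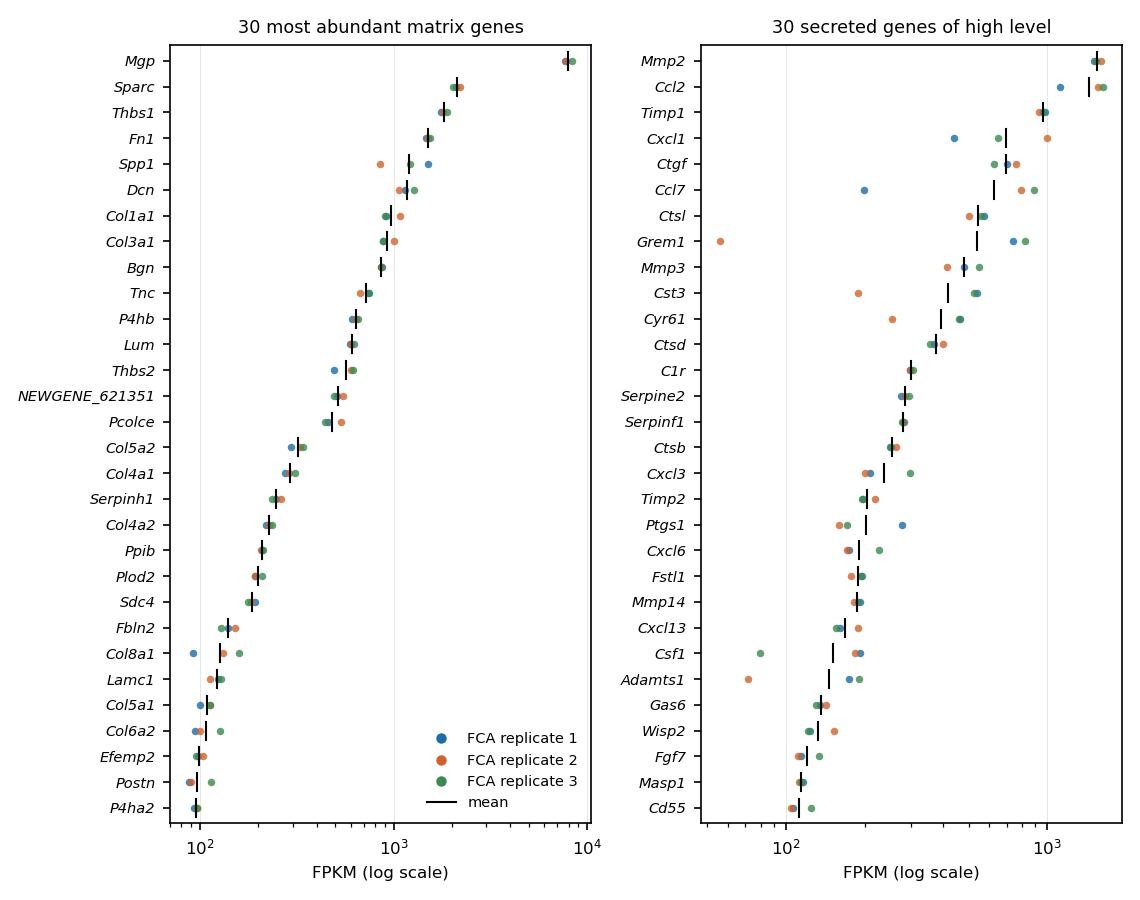
FPKM (log scale) of the 30 most abundant matrix genes and of 30 secreted genes among the most abundant in untreated FLS. Colours mark the 3 FCA libraries and the black bar is their mean. The libraries of matrix genes lie close together, whereas Ccl7, Grem1, Cst3, Csf1 and Adamts1 among the secreted genes have 1 library well below the others.

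Secreted genes spread more, with 129 of 199 measured genes at 1 FPKM or more, 18 of these ranging over 2-fold, and a median coefficient of variation of 12.2%. The gelatinase Mmp2 led the proteases at 1510.05, 1606 and 1541 FPKM. Mmp3, stromelysin 1, was at 482, 412 and 548 FPKM, 3.28 ± 0.556-fold lower. Mmp2 and Mmp3 each had 2 records, and only the higher of each entered the ratios given for them. Mmp13, the collagenase of cartilage breakdown, was at 72.1, 66.5 and 87.7 FPKM. Lysosomal cathepsins were also high, with Ctsl at 575, 501 and 557 FPKM and Ctsd at 370, 398 and 356 FPKM. The aggrecanase Adamts1 was at 175, 71.3 and 191 FPKM, low in replicate 2 alone.

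Protease inhibitors stood at similar levels. Timp1, which blocks metalloproteinases, was at 977, 932 and 965 FPKM, 0.618 ± 0.0339 times the level of Mmp2 and 4.72 ± 0.406 times that of Timp2. Serpine2, which inhibits thrombin, was at 275, 285 and 295 FPKM. Cst3, the cathepsin inhibitor cystatin C, was at 540, 189 and 522 FPKM, low in replicate 2.

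Chemokines of untreated FLS were led by monocyte and neutrophil attractants. Ccl2, which draws monocytes, was at 1122, 1565 and 1630.02 FPKM, and its neighbour Ccl7 at 199, 795 and 887 FPKM. Cxcl1, a neutrophil attractant, was at 441, 996 and 646 FPKM, and Cxcl3 at 210, 200.2 and 299 FPKM. Replicate 1 was the lowest of the 3 for Ccl2, Cxcl1 and Ccl7, and the summed level of the chemokine list was 2470, 4054 and 4009 FPKM. Of 24 measured chemokines 12 reached 1 FPKM, 4 of which ranged over 2-fold. Ccl3, Ccl5, Cxcl11 and Pf4 were among the 6 listed at 0.

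Of 27 measured cytokines 14 reached 1 FPKM. Csf1, the macrophage growth factor, was at 192, 184 and 79.4 FPKM, low in replicate 3. Il6 was at 81.6, 108 and 128 FPKM, and Csf1 exceeded it in replicates 1 and 2 only. Lif and Clcf1, which signal through the same gp130 receptor as IL-6, were at 37.8, 38.6 and 52.2 FPKM and at 39.2, 39.7 and 44.9 FPKM. Il1b was near the floor, at 1.15, 1.31 and 2.18 FPKM, and Tnf was at 0, 0.02 and 0 FPKM.

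Growth factors were represented by 49 of 65 measured genes. Ctgf, connective tissue growth factor, was at 704, 756 and 624 FPKM, and Cyr61, of the same CCN family, at 465, 255 and 458 FPKM. Fstl1, a follistatin-like glycoprotein, was at 194, 178 and 196 FPKM. Among the 49 genes 9 ranged over 2-fold (of FPKM + 1), Grem1 most widely on that scale. Of 23 complement genes 13 reached 1 FPKM, with C1r, the first protease of the classical pathway, at 299, 299 and 306 FPKM and Masp1, of the lectin pathway, at 116, 112 and 114 FPKM. In the prostaglandin pathway, Ptgs1, the constitutive cyclooxygenase, was at 277, 160.2 and 172 FPKM and stood 7.22 ± 2.23-fold above Ptgs2, the inducible form, at 40.8, 16.6 and 32.9 FPKM. Alox5, which starts leukotriene synthesis, did not exceed 0.01 FPKM.

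Abundance was set beside promoter sequence through the hexamer TATAAA, the core of the TATA box. RefSeq windows of assembly GRCr8, 300 bases long, were available for 24206 uniquely named genes. The hexamer lay on the sense strand between 50 and 16 bases before the start in 2.26% of all windows, and in 1.16% of those of genes at 1 FPKM or more (7241 of 10553 names matched). Among the 100 most abundant names 62 matched a window, and 12 of them (19.4%) held it. For secreted genes of at least 10 FPKM it was 8 of 54 matched, namely Ccl7, Mmp3, Cxcl13, Mmp13, Mmp10, Igfbp4, Inhba and Angptl4, against 2 of 47 matrix genes, 1 of 31 transcription factor genes and 0 of 37 receptor genes. These shares are descriptions, and a match is not a shown binding site.

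The 100 bases before the start are shown for S100a4, the most abundant gene with the hexamer, for the chemokines Ccl7 and Cxcl13, and for Sparc and Timp1, abundant genes without it in this window. Capitals mark TATAAA, and each run is read 5′ to 3′ on the gene's strand. S100a4 is at chr2:178388429-178388528 (+), Ccl7 at chr10:67513995-67514094 (+), Cxcl13 at chr14:13917921-13918020 (minus), Sparc at chr10:40038817-40038916 (minus) and Timp1 at chrX:3771123-3771222 (minus), all in GRCr8 and all immediately upstream of the annotated gene.
S100a4: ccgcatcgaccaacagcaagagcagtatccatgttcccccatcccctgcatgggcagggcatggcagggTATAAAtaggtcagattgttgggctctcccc
Ccl7: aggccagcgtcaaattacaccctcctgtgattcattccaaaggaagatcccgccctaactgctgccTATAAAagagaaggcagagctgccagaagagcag
Cxcl13: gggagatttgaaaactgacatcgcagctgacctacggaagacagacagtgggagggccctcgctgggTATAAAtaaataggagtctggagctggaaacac
Sparc: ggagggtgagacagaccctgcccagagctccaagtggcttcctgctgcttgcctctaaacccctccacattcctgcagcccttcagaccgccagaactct
Timp1: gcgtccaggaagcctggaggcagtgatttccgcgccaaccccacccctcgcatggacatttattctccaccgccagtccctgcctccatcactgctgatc
The first T of the hexamer lay 31, 34 and 33 bases before the start in S100a4, Ccl7 and Cxcl13.

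Receptor genes stood at lower levels than matrix genes, with 122 of 228 measured genes at 1 FPKM or more and 4 at 100 FPKM. Itgb1, the common integrin beta 1 subunit, was the highest at 285, 265 and 289 FPKM, and the next integrin subunit, Itgb5, was at 119, 118 and 113 FPKM. Tnfrsf12a, the receptor of TWEAK, was at 202, 213 and 202 FPKM and was the highest of 33 cytokine receptors. Among receptor tyrosine kinases, Pdgfrb was followed by Fgfr1 at 67.8, 66.7 and 67.7 FPKM, Ptk7 and the Gas6 receptor Axl.

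Of the 33 cytokine receptors 23 reached 1 FPKM. Il1rl1, the IL-33 receptor, was at 76.2, 66.6 and 154 FPKM. Ltbr, the lymphotoxin beta receptor, was at 58.1, 65.9 and 105 FPKM, so both genes were highest in replicate 3. Tnfrsf1a, the TNF receptor of most cells, was at 60.6, 62.0 and 57.9 FPKM, 14.6 ± 0.914-fold above Tnfrsf1b. Il6st, the gp130 subunit shared by the IL-6 family, was at 56.4, 53.7 and 60.6 FPKM and exceeded Il6r by 39.5-fold to 99.4-fold over the libraries. Among innate receptors only Cd14 passed 10 FPKM, and Tlr4 was at 1.93, 0.05 and 1.73 FPKM.

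G protein-coupled receptors were mostly low, 17 of 44 reaching 1 FPKM, led by the bradykinin receptor Bdkrb2 at 75.4, 65.6 and 57.4 FPKM and the endothelin receptor Ednrb at 60.3, 36.9 and 34.8 FPKM. Gpbar1, the membrane bile acid receptor TGR5 through which TCDCA can signal, was at 0, 0.05 and 0 FPKM. Of the nuclear receptors 22 of 42 reached 1 FPKM, led by Nr4a1 at 93.4, 96.9 and 98.9 FPKM, an immediate early orphan receptor. Nr3c1, the glucocorticoid receptor, had 2 records, at 4.26, 15.1 and 3.17 FPKM and at 7.15, 5.39 and 7.74 FPKM. The first was high in replicate 2 alone and the other ranged less. Nr1h4, the nuclear bile acid receptor FXR, was not analysed here.

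In the TGF-beta, BMP and Wnt group 20 of 27 reached 1 FPKM. Tgfbr2 was at 27.8, 26.4 and 30.2 FPKM and Acvr1 at 19.5, 19.8 and 18.4 FPKM, both tight. Fzd1, a Wnt receptor, was at 78.0, 8.98 and 11.98 FPKM, and its place as the list's highest rests on replicate 1.

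Transcription factors were headed by the Id proteins. Id3, an inhibitor of basic helix-loop-helix factors, was at 838, 915 and 750.46 FPKM, 3.78 ± 0.430-fold above Id1. Prrx1, a homeobox factor of limb mesenchyme, was at 163, 167 and 201 FPKM, and its paralogue Prrx2 at 124, 135 and 124 FPKM. Of 54 measured mesenchymal factors 49 reached 1 FPKM. In the AP-1, NF-kB and STAT group it was 32 of 41, none over 100 FPKM. Hif1a was at 55.03, 50.5 and 60.2 FPKM, Stat3, which acts below gp130, at 44.1, 43.2 and 39.6 FPKM, and the AP-1 subunit Fosl2 at 40.2, 39.1 and 40.0 FPKM.

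Factors that pattern the limb were expressed at modest levels. Irx3 was at 17.8, 19.3 and 17.7 FPKM, and Pitx1, the factor that specifies hindlimb, at 14.8, 19.3 and 11.7 FPKM. Barx1, a homeobox factor, was at 11.1, 12.2 and 11.2 FPKM. The other hindlimb factor, Tbx4, was low at 0.75, 0.77 and 0.60 FPKM, and the forelimb factor Tbx5 was at 3.10, 2.19 and 1.64 FPKM. Both were added to the account after their values had been seen. Pitx1 stood 21.4 ± 3.15-fold and Tbx5 3.24 ± 0.778-fold above Tbx4, so the pair of T-box genes and Pitx1 did not order the same way. Msx1 was at 0.55, 11.9 and 13.1 FPKM, and Tbx15 at 16.3, 7.01 and 7.46 FPKM, with replicate 1 the odd library in both.

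HOX genes were low, 10 of 32 reaching 1 FPKM and none reaching 10 FPKM. Hoxd9 was at 8.71, 7.6 and 7.59 FPKM, Hoxd8 at 5.81, 6.33 and 7.86 FPKM and Hoxa11 at 5.53, 4.97 and 4.68 FPKM. All 10 belonged to the A, C or D clusters and none to the B cluster, and the measured genes of paralogue group 13, which mark the paw, all lay under 1 FPKM. Hoxc10 was at 9.57, 0 and 0.04 FPKM and its mean rests on replicate 1. Of 29 master factors of other lineages, 10 reached 1 FPKM in the mean but 6 in all 3 libraries, led by Pparg, the fat cell regulator, at 9.17, 7.56 and 9.27 FPKM.

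**Figure D4:**
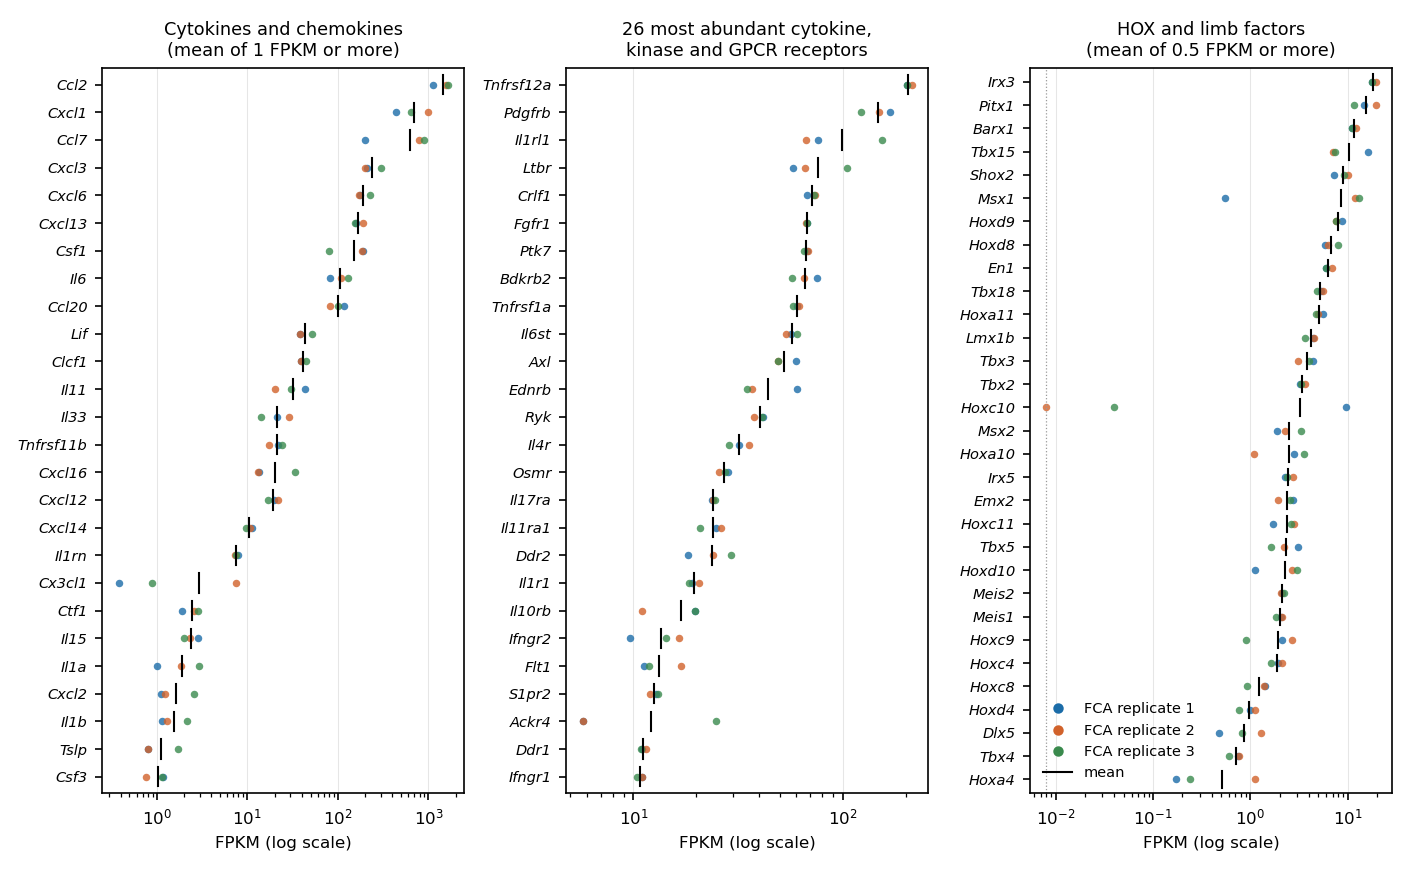
FPKM (log scale, each panel with its own range) of cytokines and chemokines, of the 26 most abundant cytokine, kinase and G protein-coupled receptors, and of HOX and limb factors in untreated FLS. Colours mark the 3 FCA libraries, the black bar is their mean, and the dotted line in the right panel holds values of 0. Ccl7, Cx3cl1, Msx1 and Hoxc10 have 1 library far from the others.

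Proliferation genes were expressed throughout. All 31 measured proliferation genes reached 1 FPKM, with a median coefficient of variation of 4.33%, under the 9.59% of all list members. Ccnd1, the G1 cyclin, was at 136, 140.3 and 135 FPKM, and Cdk1, the mitotic kinase, at 54.6, 54.7 and 53.4 FPKM. Of 33 cytoskeletal genes 32 reached 10 FPKM, with Actb at 1557, 1549.95 and 1387 FPKM and Lgals1, galectin 1, at 1172.5, 1210.44 and 1097 FPKM. Most interferon-stimulated genes of the list were low in contrast, with 6 of 16 at 1 FPKM or more. Ifi27 was the highest of the 16 at 156, 161 and 151 FPKM, and Mx1, Ifit1 and Oas1a did not pass 0.05 FPKM in any library. Ifitm3, an interferon-induced gene outside the list, was at 150, 476 and 461 FPKM.

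The baseline was set beside the other libraries of the series, to ask which untreated levels lay outside those of the TCDCA libraries. In limma on log2(FPKM + 1), 3 of 11611 records (0.0258%) passed an adjusted p under 0.05 for the 9 TCDCA libraries against the 3 FCA libraries, and 1394 (12%) passed at an unadjusted p under 0.05. The 3 records were higher in FCA. Gnpda1, an enzyme of glucosamine metabolism, was at 26.3, 24.2 and 24.9 FPKM against 6.98 to 9.75 with TCDCA (log2 difference -1.50 ± 0.0865 SE, adjusted p = 1.03e-05). Tor4a, a torsin family ATPase, was at 11.9, 13.1 and 9.66 FPKM against 0.66 to 3.6 (-2.31 ± 0.262, adjusted p = 0.00864), and the zinc finger gene Zfp652 at 3.40, 3.37 and 2.58 FPKM against 0.46 to 1.55 (-1.07 ± 0.146, adjusted p = 0.0387). The number of calls was 22 without FCA replicate 1 and 12 without FCA replicate 3. Without FCA replicate 2, Gnpda1 stayed called (limma adjusted p = 7.22e-05), but Tor4a (0.0568) and Zfp652 (0.158) did not. Zfp652 was also not called without FCA replicate 1 (0.0669). Its values above are those of 1 record. With FPKM summed over all records of that name, the log2 difference was -0.69 and Zfp652 was not called (limma adjusted p = 0.169).

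None of the 559 list members tested passed the adjusted threshold, and 78 (13.95%) passed at an unadjusted p under 0.05, near the 12% of all records. Thy1 was lower in all 9 TCDCA libraries, at 112 to 146 FPKM against 152 to 158 in FCA, but the difference did not pass (log2 -0.22 ± 0.0837, adjusted p = 0.356, two-sided exact permutation p = 0.0227). Vcam1, an adhesion molecule that binds leukocytes, was higher in all 9, at 4.01 to 5.70 FPKM against 2.55 to 3.64 in FCA (log2 0.49 ± 0.0938, adjusted p = 0.201, exact permutation p = 0.00455, the smallest that 220 groupings allow). Vcam1 had the lowest adjusted p of its list and was named after its values had been seen, so its permutation p is a description. Mgp, Mmp2 and Timp1 overlapped between the groups, with log2 differences of 0.02, 0.0014 and -0.02.

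No matrix gene passed the adjusted threshold in this comparison. Of 86 matrix members tested, 67 were lower with TCDCA, with a median log2 difference of -0.09 against 0.00306 over all records, and 23 passed at an unadjusted p under 0.05, of which 21 were lower (6.15% of all records were lower at that level). In 11 of the 86 (12.8%) every FCA library lay above every TCDCA library, against 1.9% of all records tested. A member with several records entered by its record of highest FCA mean, and the lists were chosen with earlier results known. Neither holds for all records, so member and all-record values are set side by side as a description, not a test. By list the separated genes were 2 of 8 fibrillar collagens, 4 of 14 other collagens, 3 of 19 proteoglycans, 1 of 29 glycoproteins and 1 of 16 processing enzymes. In the lists of other cell types it was 6 of 41 (14.6%), of which 3 were smooth muscle and pericyte genes and 1 was Acan, also counted among the matrix members. Among records of at least 10 FPKM it was 9 of 65 matrix members (13.8%) against 2.98%. The 11 were Bgn, NEWGENE_621351 (Col1a2), Col4a1, Col4a2, Gpc1, Col6a1, Col18a1, Thbs4, Bmp1, Col5a3 and Acan. The other record of Col1a2, not counted here, was separated as well, at 466 to 515 FPKM in FCA and 333 to 465.54 FPKM with TCDCA.

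Single values show the size of these differences. Col4a1 was at 275, 289 and 308 FPKM in FCA and at 207 to 258 FPKM with TCDCA, a log2 difference of -0.28 ± 0.0805 (adjusted p = 0.306). Col6a1 was at 57.3, 57.5 and 58.2 FPKM against 38.5 to 52.8 FPKM (-0.30 ± 0.0773, adjusted p = 0.268). Lum went the other way and was the only matrix member with every FCA library below every TCDCA library (0.956% of all records, and 0.642% of those of at least 10 FPKM), at 595, 603 and 625 FPKM against 695 to 906 FPKM (0.30 ± 0.0740, adjusted p = 0.257). Without FCA replicate 1, 20 of 86 matrix members lay above all TCDCA libraries against 4.23% of all records. Without FCA replicate 2 it was 12 of 86 against 3.42%, and without FCA replicate 3, 18 of 86 against 5.07%. Leaving out libraries can only keep or raise the number among the same members, so a higher number is no added support. Against the AT10, AT1 and AT01 libraries alone, the numbers were 29, 23 and 29 of 86, with 9.20%, 10.1% and 8.06% of all records. The 3 doses share the same 3 FCA libraries, so these numbers are not separate evidence.

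Of 31 proliferation genes 8 passed at an unadjusted p under 0.05, all higher with TCDCA, where 5.86% of all records were higher at that level. Of the 31 genes 11 were lower with TCDCA, the median log2 difference was 0.08 against 0.00306 over all records, and in 0 of 31 every FCA library lay below every TCDCA library. Mki67, the Ki-67 antigen, was at 6.74, 5.84 and 8.11 FPKM in FCA and at 7.85 to 10.5 FPKM with TCDCA (log2 difference 0.41 ± 0.0949, adjusted p = 0.241), and the groups overlapped. Mki67 had the lowest adjusted p of its list and was named after its values had been seen. Of the 128 secreted members tested, 11 (8.59%) passed at an unadjusted p under 0.05, fewer than the 12% of all records. Il6 was at 109 to 205 FPKM with TCDCA against 81.6 to 128 FPKM, and the groups overlapped (log2 difference 0.55 ± 0.194, adjusted p = 0.339, exact permutation p = 0.0364).

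**Figure D5:**
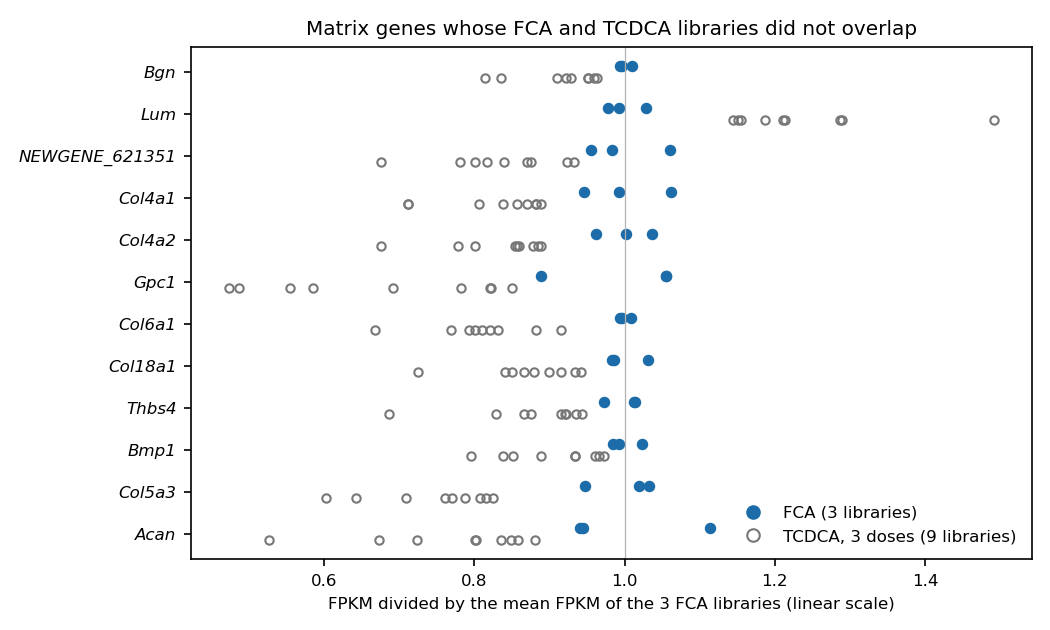
FPKM of each library divided by the mean of the 3 FCA libraries (linear scale) for the 12 matrix genes whose FCA and TCDCA libraries did not overlap. Filled points are the 3 FCA libraries and open points the 9 TCDCA libraries of 3 doses. For 11 genes all open points lie left of the FCA points, and for Lum all lie right. These genes were picked for this separation, so the plot is a description.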

How the data were processed

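The FPKM values were deposited by the authors to 2 decimals, 1 column per library, after alignment with HISAT2 (version 2.0.4) and estimation with StringTie (1.2.4) and Ballgown (2.6.0). The submitters' processing notes also name cutadapt and edgeR. The genome build is not given in the sources used here. No read counts were used here, no scaling between libraries was added, and FPKM compares genes per length.

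A symbol with several records was represented by its record of highest FCA mean. The matrix, secreted, receptor, transcription factor, lineage, identity and cell state roles comprised 45 lists with 1047 symbols, of which 927 had a record. The members and lists were chosen with earlier results of these data known. Genes named were the 25 most abundant names, the 4 highest members of each list, the fibroblast markers, lineage genes listed at 0, Gpbar1, Nr3c1, Nr1h4, Tnf, Il1b and Il6, members that ranged over 2-fold, and calls. Other names were chosen after their values were seen, and a few items that the rule names are not reported here.

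Records averaging 1 FPKM or more across the 12 libraries (11611) were tested as log2(FPKM + 1) with limma 3.58.1 (trend, R 4.3.3) and Benjamini-Hochberg adjustment. Fold changes on this scale understate low genes. The code was tested on simulated data. Python 3.11.15, NumPy 2.4.6, pandas 2.3.3, SciPy 1.17.1 and Matplotlib 3.10.9 served for the rest, with exact permutation tests two-sided over 220 groupings. Promoter windows were RefSeq's, GRCr8. The q-PCR and western blot assays of the study were not analysed here.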

Additional observations from a re-analysis of the deposited data

How the results depend on the processing

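The 11540 FCA records at 1 FPKM and the 8.67% of FPKM in the 10 most abundant records changed little, the latter between 8.65% and 8.71% without 1 library. The median correlation of FCA libraries was 0.947, and 0.980 without the log, 0.937 by Spearman's rank, 0.903 with a pseudocount of 0.1, 0.970 with no filter and 0.906 at a mean of at least 10 FPKM. Of 944 records ranging over 2-fold, 328 had a mean of at least 10 FPKM, and leaving out 1 library gave 550 to 567. Requiring 1 FPKM in all 3 libraries left 6 in place of 10 master factors of other lineages. Rescaling FPKM to a common library sum as TPM, which raises every level, put 2 in place of 1 neutrophil and mast cell genes, 2 in place of 0 antigen-presenting and 2 in place of 0 epithelial genes, and 5 in place of 3 skeletal muscle genes over 1. The 3 calls for TCDCA against FCA became 1 with a pseudocount of 0.1, 1 at a mean of at least 10 FPKM, 5 with 4 groups in 1 fit, 1 by a Ballgown-style F test, and 2 to 22 without 1 library. Gnpda1 stayed called under each alternative, whereas Tor4a and Zfp652 did not. At a mean of at least 10 FPKM, Tor4a and Zfp652 were not tested, since their means over all libraries lie below that level. The matrix members above all TCDCA libraries numbered 11 to 20 of 86 without 1 library (2.04% to 5.07% of all records), 12 with median-of-ratios scaling (2.19%) and 9 of 95 after that rescaling (1.01%), alternatives chosen after seeing the data. Leaving out a library can only keep or raise this number, so that range is no test of its stability. The causes of the other changes were not tested.

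With the replicate number as a block, 1 record was called. Deviations of libraries with the same replicate number correlated at -0.105 to 0.0942 (18 pairs), and those with different numbers at -0.154 to 0.149 (36 pairs). No pairing by number was seen, but a weak one could be hidden in such deviations from means of 3 libraries.

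With 3 libraries and no read counts, the error of a low level cannot be stated.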
